A study of Homo sapiens with 4 samples.

Results

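The genes of MHC class I antigen presentation were followed through AT/RT-MYC cells before and after chemotherapy. The 9 members were chosen by name, as class I and peptide loading genes of the count table, namely *HLA-B*, *HLA-C*, *HLA-E*, *HLA-F*, *B2M*, *TAP1*, *TAP2*, *TAPBP*, and *NLRC5*, out of 18449 gene symbols, by a rule that uses no measured value. All 9 were detected in all 4 libraries and were tested among the 18066 genes with a nonzero total. RNA came from BT-16 and CHLA-266, established human cell lines of atypical teratoid/rhabdoid tumor of the MYC type, a malignant brain tumor of early childhood defined by loss of *SMARCB1*. One group held both lines untreated, and the other held both lines after doxorubicin (1 µM), etoposide (5 µM), and vincristine (1 µM), given over 3 consecutive days and followed by regrowth. Both groups grew in the same serum-containing medium and were labelled as 1 batch, and the labels name no engineered allele. Each line gave 1 library per condition, so each condition held 2 libraries and the lines were the replicates. With no second culture of a line, *p* values measure the spread between 2 lines, and the cell populations that survived treatment were sequenced in bulk.

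Class I molecules show peptides from inside the cell to CD8+ T cells and to receptors of natural killer cells. A heavy chain (such as *HLA-B* and *HLA-C* in the classical set, *HLA-E* and *HLA-F* in the nonclassical set) pairs with the light chain β2-microglobulin, encoded by *B2M*. The proteasome cuts peptides, the transporter made of TAP1 and TAP2 carries them into the endoplasmic reticulum, and tapasin (*TAPBP*) holds the empty heavy chain at the transporter. NLRC5 enters the nucleus and activates the promoters of these genes together with the RFX, NF-Y, and CREB factors, and interferons raise the whole set through STAT and IRF factors.

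The promoters were searched for sites of these inputs. The RefSeq table held windows for 7 of the 9 members and none for *HLA-E* and *NLRC5*. The 250 bases before the annotated start on GRCh38.p14 were scanned on both strands for the core of the interferon-stimulated response element (GAAANNGAAA), the inverted CCAAT box read by NF-Y (ATTGG), the core of the cAMP response element (TGACG), and the kappa-B site of NF-κB. The 5 windows below are those of the classical heavy chains among the members, the light chain, and both loading genes that passed the threshold after treatment. Capitals mark bases covered by a match of any of the 4 motifs, and adjoining or overlapping matches run together. *HLA-B* lies at chr6:31357180-31357429, *HLA-C* at chr6:31272093-31272342, *TAP1* at chr6:32853705-32853954, and *TAPBP* at chr6:33314079-33314328, all on the minus strand, and *B2M* lies at chr15:44711267-44711516 on the plus strand.
HLA-B: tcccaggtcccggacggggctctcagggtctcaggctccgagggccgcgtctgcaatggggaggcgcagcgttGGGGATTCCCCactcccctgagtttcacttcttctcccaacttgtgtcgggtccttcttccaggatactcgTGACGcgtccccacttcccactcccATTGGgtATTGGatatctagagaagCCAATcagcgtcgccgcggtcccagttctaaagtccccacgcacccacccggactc
HLA-C: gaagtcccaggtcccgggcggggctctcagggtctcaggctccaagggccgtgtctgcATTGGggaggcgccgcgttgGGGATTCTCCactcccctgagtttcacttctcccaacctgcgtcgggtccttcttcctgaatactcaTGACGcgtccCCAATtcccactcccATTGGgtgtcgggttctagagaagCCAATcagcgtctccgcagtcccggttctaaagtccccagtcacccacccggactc
B2M: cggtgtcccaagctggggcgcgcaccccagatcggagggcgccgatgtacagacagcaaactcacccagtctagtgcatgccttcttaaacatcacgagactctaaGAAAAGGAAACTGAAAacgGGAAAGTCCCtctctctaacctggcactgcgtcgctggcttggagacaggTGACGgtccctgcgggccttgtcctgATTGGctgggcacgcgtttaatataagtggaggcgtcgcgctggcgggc
TAP1: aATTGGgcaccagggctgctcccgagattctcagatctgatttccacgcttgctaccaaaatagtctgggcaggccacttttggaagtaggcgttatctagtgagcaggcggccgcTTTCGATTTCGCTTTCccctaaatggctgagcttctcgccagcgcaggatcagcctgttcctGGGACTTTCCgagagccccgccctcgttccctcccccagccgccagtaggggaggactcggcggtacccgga
TAPBP: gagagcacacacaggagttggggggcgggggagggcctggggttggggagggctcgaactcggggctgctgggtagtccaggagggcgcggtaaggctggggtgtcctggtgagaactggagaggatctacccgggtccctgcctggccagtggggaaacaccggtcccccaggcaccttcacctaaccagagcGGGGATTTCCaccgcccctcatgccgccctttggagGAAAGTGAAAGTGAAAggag

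The response element core stood in at least 1 window of 5 of the 7 genes (*HLA-F*, *B2M*, *TAP1*, *TAP2*, and *TAPBP*), against 528 of 14383 tested genes with a window (3.67%). It had no match in the windows of *HLA-B* and *HLA-C*, which carried 3 and 4 inverted CCAAT boxes and 1 TGACG each. A CCAAT match was held by 32.0% of all 35116 windows, a TGACG by 21.2%, and a kappa-B match by 5.21%. The *HLA-B* and *HLA-C* windows were alike in 226 of 254 alignment columns (89.0%). *TAP1* had a second RefSeq window with no match, and the start that follows the printed one lies 488 bases from the start of *PSMB9*, an immunoproteasome gene transcribed the opposite way. A match is a run of letters and not a bound site. Only exact matches were searched, so a missing match does not show that a variant of the site is absent.

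Depth and identity of the libraries were as follows. Total counts ranged from 49849257 to 75087193, with the treated library the smaller in both lines, and at most 34.2% of counts between 1 and 20 were odd, so both reads of a pair may have been counted and intervals from counting error may be too narrow. *MYC*, the gene that names the tumor type, lay between the 91.0th and the 93.2nd percentile of counts per kilobase of exon. *SMARCB1* was read with 1394 counts before and 981 after treatment of BT-16, and with 1313 before and 827 after treatment of CHLA-266, so reads of the gene were present in all libraries although its loss defines the tumor, and counts per gene do not show which exons they came from. Low-level signal was higher in the treated libraries. In 483 olfactory receptor and keratin-associated genes, which such cells are not known to use, the 95th percentile was 4.10 counts per kilobase before and 31.7 after treatment of BT-16, and 3.20 before and 21.9 after treatment of CHLA-266.

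After treatment, *TAP1*, *HLA-E*, and *TAPBP* were upregulated, by 3.03-fold, 1.91-fold, and 1.82-fold, with higher levels in both cell lines. *HLA-B* and *HLA-C* had treated levels on opposite sides of the untreated ones in the lines, and the light chain *B2M* did not pass the threshold. In edgeR's quasi-likelihood test without a cell line term, 3 of the 9 members were higher at an adjusted *p* value under 0.05, where 16.1% of all genes were higher. No member was lower at that threshold, where 19.1% of all genes were lower, although 1 was lower at an unadjusted *p* under 0.05, and DESeq2 without the term made the same counts of 3 and 0. Blocking on the cell line, 3 members were higher (17.9% of all genes) and 1, *HLA-B*, was lower (23.7%). The median log2 fold change was 0.72 over the members and 0.24 over all genes tested. Scaling moved the latter to 0.59 with upper-quartile normalization and 0.46 with library totals, and the share of higher genes among all called genes from 45.7% to 69.7% and 61.0%, while *TAP1*, *HLA-E*, and *TAPBP* passed under each scaling. In bulk RNA, fewer cells that use a gene and less RNA of it per cell cannot be told apart. Levels below are TMM-normalized read counts scaled to library size (CPM), and a log2 fold change compares treated with untreated libraries.

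**Figure D1:**
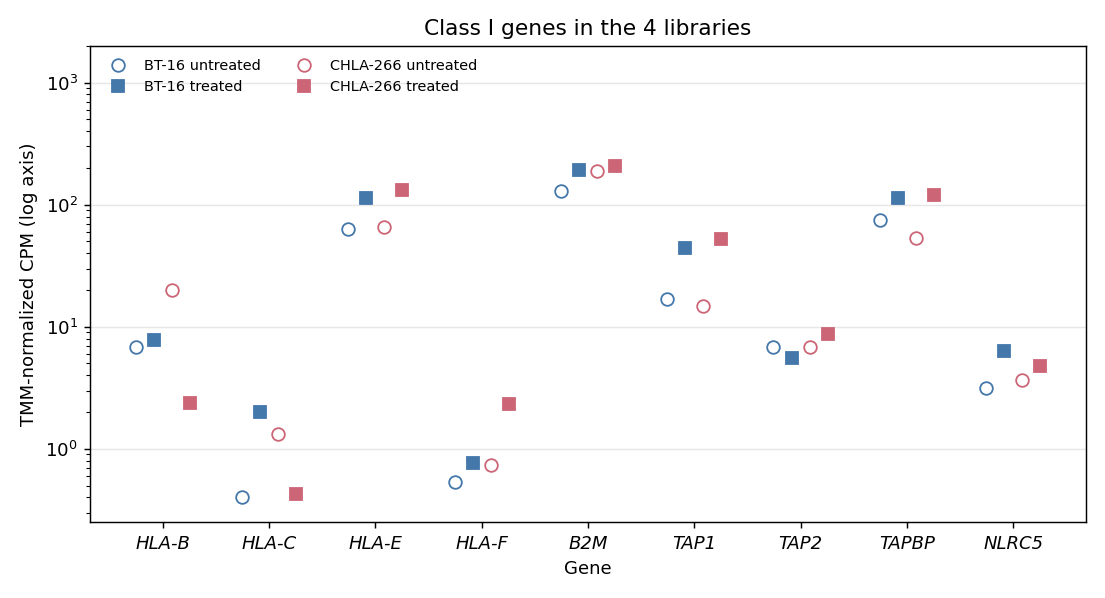
TMM-normalized CPM on a log axis for the 9 class I genes, with 1 point per library, open circles for untreated and filled squares for treated cells, blue for BT-16 and red for CHLA-266. Both squares of *TAP1*, *HLA-E*, and *TAPBP* sit above both circles, while *HLA-B* runs from 20.0 in untreated to 2.39 in treated CHLA-266 cells.

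*HLA-E* (ENSG00000204592, chromosome 6, 30489509 to 30494194) encodes the nonclassical chain that shows leader peptides of other class I chains to the NKG2A and NKG2C receptors. BT-16 cells had 63.6 CPM untreated and 114.3 treated, and CHLA-266 cells had 66.1 and 132.7. The untreated libraries were close together (64.8 ± 1.78, SD, *n* = 2) and both treated libraries were higher (123.5 ± 13.0). The log2 fold change was 0.93 (SE 0.16, adjusted *p* = 0.00322, edgeR), and it passed with each library left out in turn, between 0.83 and 1.03.

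*HLA-F* (ENSG00000204642, chromosome 6, 29722775 to 29738528) encodes a nonclassical chain that also reaches the surface without peptide. BT-16 cells gave 37 counts untreated and 44 treated, and CHLA-266 cells gave 45 and 121. Only treated CHLA-266 cells stood out, at 2.33 CPM against 0.536 to 0.761 in the other libraries. The log2 fold change of 1.28 (SE 0.77, adjusted *p* = 0.216, edgeR) did not pass, and it was 0.27 without treated CHLA-266 cells and 1.87 without treated BT-16 cells. The gene overlaps *HLA-F-AS1* on the opposite strand, and whether the counting used strand is not stated.

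*HLA-B* (ENSG00000234745, chromosome 6, 31353872 to 31367067) and *HLA-C* (ENSG00000204525, chromosome 6, 31268749 to 31272130) encode classical chains that present peptides to CD8+ T cells and bind killer cell immunoglobulin-like receptors. Exons of *HLA-B* overlap a long noncoding RNA gene on the opposite strand (ENSG00000285647), with the limit given for *HLA-F*. For *HLA-B*, BT-16 cells gave 470 counts untreated and 450 treated (6.81 and 7.78 CPM), and CHLA-266 cells gave 1231 and 124 (20.0 and 2.39 CPM). The highest and the lowest library were thus the untreated and the treated library of the same line, and the groups overlapped. Without a cell line term the log2 fold change was −1.40 (SE 0.61, adjusted *p* = 0.106, edgeR), and blocking on the line made it −1.41 (SE 0.46, adjusted *p* = 0.0143), so this call rests on the model. It also rests on CHLA-266, since the change was −1.97 without untreated BT-16 cells (adjusted *p* = 0.0259) and −2.49 without treated BT-16 cells (adjusted *p* = 2.40e-07, edgeR), while it came as near to zero as −0.42 with a library of CHLA-266 left out.

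*HLA-C* was low, since BT-16 cells gave 28 counts untreated and 115 treated, and CHLA-266 cells 81 and 22. It was highest in treated BT-16 cells at 1.99 CPM, followed by untreated CHLA-266 cells at 1.32, with 0.406 and 0.423 in the remaining pair. The log2 fold change over both lines was 0.49 (SE 0.92, adjusted *p* = 0.687, edgeR) and ranged from −1.02 to 1.57 with 1 library left out.

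*B2M* (ENSG00000166710, chromosome 15, 44711358 to 44718851) encodes the light chain shared by all class I molecules and had the highest level per kilobase of the members. BT-16 cells had 130.5 CPM untreated and 192.7 treated, and CHLA-266 cells 189.7 and 206.7, so 1 untreated library was low and the other 3 lay close together. The log2 fold change was 0.32 (SE 0.20, adjusted *p* = 0.239, edgeR), and 0.34 with the block (adjusted *p* = 0.0675). It was 0.074 without untreated BT-16 cells and 0.61 without untreated CHLA-266 cells. Both treated libraries lay above both untreated ones, as for 6 of the 9 members and 40.2% of all genes.

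*TAP1* (ENSG00000168394, chromosome 6, 32845209 to 32853816) and *TAP2* (ENSG00000204267, chromosome 6, 32821833 to 32838739) encode both chains of the peptide transporter and lie 6469 bases apart. *TAP1* in BT-16 rose from 1174 to 2550 counts (17.0 to 44.1 CPM), and in CHLA-266 from 909 to 2709 (14.8 to 52.1 CPM). This 3.03-fold rise was the largest among members past the threshold, with a log2 fold change of 1.60 (SE 0.19, adjusted *p* = 0.000573, edgeR) and a range of 1.49 to 1.72 with 1 library left out. For *TAP2*, BT-16 cells had 6.80 CPM untreated and 5.50 treated, and CHLA-266 cells 6.81 and 8.66. The log2 fold change was 0.06 (SE 0.34, adjusted *p* = 0.903), so the partner genes were called differently, although the difference between them was not tested. Of the windows of 1 read length in the *TAP2* transcript, 34.7% also occur in ENSG00000250264, an overlapping gene on the same strand. The count of *TAP2* is therefore uncertain, while no window of *TAP1* is shared. Exons of *TAP1* overlap *PSMB8-AS1* on the opposite strand, and whether the counting used strand is not stated.

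*TAPBP* (ENSG00000231925, chromosome 6, 33299694 to 33314284) encodes tapasin. Its exons overlap a long noncoding RNA gene on the opposite strand (ENSG00000289100), with the limit given for *HLA-F*. BT-16 cells had 75.02 CPM untreated and 113.0 treated, and CHLA-266 cells 53.4 and 120.7. Treated libraries were close together (116.9 ± 5.44, SD, *n* = 2) and above the untreated ones (64.2 ± 15.3). The log2 fold change was 0.86 (SE 0.19, adjusted *p* = 0.0100, edgeR), but without untreated CHLA-266 cells it was 0.64 with an adjusted *p* of 0.0642. *NLRC5* (ENSG00000140853, chromosome 16, 56989485 to 57083531) is the class I transactivator. BT-16 cells had 3.13 CPM untreated and 6.35 treated, and CHLA-266 cells 3.66 and 4.81. Its treated libraries were both higher, by a log2 fold change of 0.72 (SE 0.37, adjusted *p* = 0.163) that did not pass.

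To see whether both lines gave the same answer, treated was set against untreated within each line, with exact Clopper-Pearson intervals that cover counting error only. For *HLA-B* the log2 ratio of BT-16 was 0.19 (95% interval 0.0024 to 0.38) and that of CHLA-266 was −3.06 (−3.35 to −2.80), which is an 8.35-fold lower level. The ratios of *HLA-C* were 2.27 (1.69 to 2.94) for BT-16 and −1.61 (−2.39 to −0.94) for CHLA-266. *TAP2* went the other way, with −0.31 (−0.52 to −0.10) for BT-16 and 0.35 (0.15 to 0.54) for CHLA-266. Scaled to library totals in place of TMM, its ratio for BT-16 was −0.016. Intervals lay above 0 for 7 members in each line, where 46.9% (BT-16) and 44% (CHLA-266) of all genes did, and below 0 for 1 member of BT-16 (39.1% of all genes) and 2 of CHLA-266 (36.8%). *HLA-B*, *HLA-C*, and *TAP2* were the 3 members in opposite directions with both intervals clear of 0, where 5.62% of all genes did, and 2 remained with counts halved for read pairs, since *HLA-B* in BT-16 then spanned −0.08 to 0.46. Among 12620 genes that reached 10 counts in each library, the CHLA-266 ratio minus the BT-16 ratio was 6th lowest for *HLA-C* (−3.89) and 21st lowest for *HLA-B* (−3.25). With 1 library per line and condition, the difference in response between the lines could not be tested.

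The other members had ratios above 0 in both lines. *TAP1* reached 1.37 (BT-16) and 1.82 (CHLA-266), and *HLA-E* reached 0.85 and 1.01. *TAPBP* and *HLA-F* had the higher ratio in CHLA-266 (0.59 against 1.18, and 0.50 against 1.66), whereas *B2M* and *NLRC5* had the higher ratio in BT-16 (0.56 against 0.12, and 1.02 against 0.40). The median ratio over the members was 0.59 for BT-16 cells beside 0.19 over all genes tested, and 0.40 beside 0.24 for CHLA-266 cells.

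**Figure D2:**
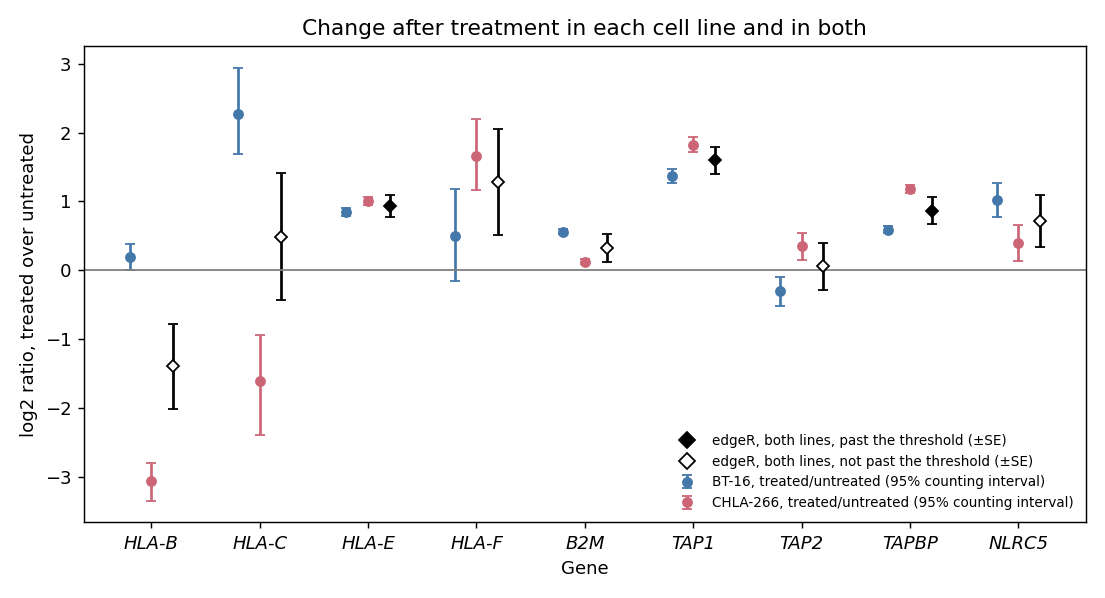
Log2 ratio of treated to untreated level for each class I gene, in BT-16 (blue) and CHLA-266 (red) with 95% counting intervals, and the edgeR log2 fold change over both lines (diamonds, ± SE, filled where the adjusted *p* value was under 0.05). The lines lie on opposite sides of 0 for *HLA-B* (0.19 and −3.06), *HLA-C* (2.27 and −1.61), and *TAP2* (−0.31 and 0.35).

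The lines themselves were compared with the condition kept in the model. By edgeR, no member passed an adjusted *p* of 0.05 between CHLA-266 and BT-16, where 2.3% of all genes did (0.836% higher and 1.46% lower in CHLA-266), and DESeq2 called none either. At an unadjusted *p* under 0.05, 1 member differed, *B2M*, with a log2 difference of 0.32 (SE 0.15, adjusted *p* = 0.458). *HLA-F* had the largest estimate at 1.04 (SE 0.88, adjusted *p* = 0.859). This comparison averages the line difference over both conditions, so differences of opposite sign cancel. *HLA-B* had 20.0 CPM in CHLA-266 against 6.81 in BT-16 untreated, but 2.39 against 7.78 treated. For *HLA-C* the levels were 1.32 against 0.406 untreated, and 0.423 against 1.99 treated. The lines are therefore not shown to have alike levels of these genes.

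Levels of different genes were compared within a library as counts per kilobase of annotated exon. *B2M*, *HLA-E*, and *TAPBP* were the 3 highest members, in that order, in every library. In untreated BT-16 cells they had 2884, 1501, and 778 counts per kilobase, and *TAP1* and *HLA-B* followed with 248 and 102. Among all genes, *HLA-E* moved from the 88.6th to the 96.3rd percentile with treatment of BT-16 and from the 89.6th to the 96.6th with treatment of CHLA-266. A percentile also depends on all other genes of the library. The proteasome gene *PSMB5* went from 98.08 to 98.27 in BT-16 while its CPM fell from 152.4 to 106.8. In CHLA-266 its percentile went from 97.85 to 97.71. *HLA-E* held most of the summed counts per kilobase of *HLA-B*, *HLA-C*, *HLA-E*, *HLA-F*, and *HLA-G*. Its share was 92.45% before and 93.2% after treatment of BT-16, and 81.7% before and 97.15% after treatment of CHLA-266. *HLA-B* held 6.26%, 4.01%, 15.6%, and 1.10% in the same order. The ratio of *HLA-E* to *HLA-B* was 14.8 and 23.2 for BT-16, and for CHLA-266 it moved from 5.23 to 88.0. With the length of the canonical transcript, an alternative added after seeing the data, these ratios were 5.63, 8.85, 1.99, and 33.5, so the size depends on the length used while *HLA-E* stayed the larger. Reads were aligned to 1 reference allele per HLA gene, so these shares and ratios are of counted reads. How far that alignment lowered the count of any chain was not tested.

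Not every member stood above the low-level signal of the library. *B2M*, *HLA-E*, *TAPBP*, *TAP1*, and *HLA-B* were above the 95th percentile of the silent families in all 4 libraries, although *HLA-B* in treated CHLA-266 cells, at 26.8 counts per kilobase, was close to that limit of 21.9. *HLA-C* in treated CHLA-266 cells (8.78), *HLA-F* in treated BT-16 cells (10.2), and *TAP2* in treated BT-16 cells (30.7) were below it. *NLRC5* was below it in both treated libraries, at 29.6 against 31.7 and 20.2 against 21.9. In place of 5, 6 members were above in all libraries against olfactory receptors alone, and 7 with the length of the canonical transcript, so the members near the limit depend on both choices. The part of this signal in the changes of *HLA-C*, *HLA-F*, *TAP2*, and *NLRC5* was not tested, whereas *TAP1*, *HLA-E*, and *TAPBP* had 538 counts per kilobase or more in the treated libraries.

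**Figure D3:**
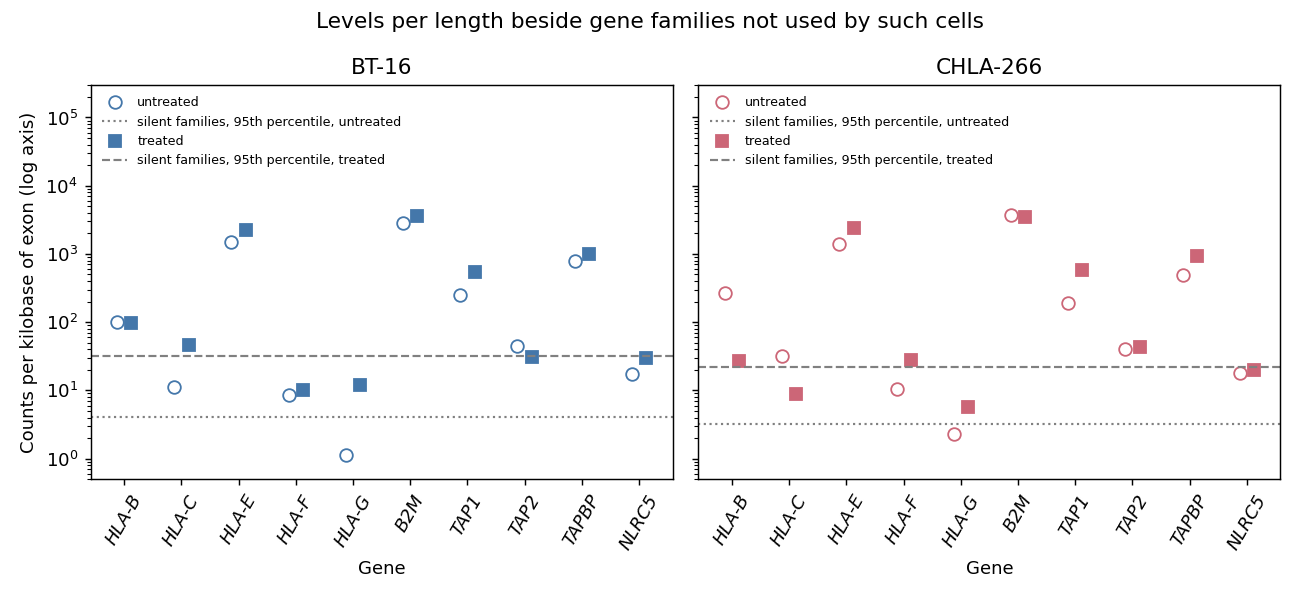
Counts per kilobase of exon on a log axis for the class I genes with *HLA-G* added, in BT-16 (left) and CHLA-266 cells (right), open circles untreated and filled squares treated. Horizontal lines are the 95th percentile of 483 olfactory receptor and keratin-associated genes in the untreated (dotted) and treated (dashed) library, and *NLRC5* lies under the dashed line in both treated libraries.

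The remaining pathway was followed in 61 genes, of which 58 were detected. Of these, 6 were higher and 14 lower, where 16.1% and 19.1% of all genes were, with a median log2 fold change of −0.0039, and with the block 11 were higher and 18 lower. The split depends on the scaling, since upper-quartile normalization gave 11 higher and 2 lower and library totals 10 and 9, and on the untreated libraries, since 5 were higher and 7 lower without untreated BT-16 cells and 3 and 8 without untreated CHLA-266 cells. Of the 14 lower genes, *CALR* and *PDIA3* still passed with upper-quartile normalization, and the others kept their sign but did not pass. Of 9 loading and trimming genes, 1 rose and 4 fell. *TAPBPL*, which encodes the tapasin homolog TAPBPR that edits peptides, rose in BT-16 from 255 to 770 counts and in CHLA-266 from 268 to 997 (log2 fold change 2.01, SE 0.31, adjusted *p* = 0.00174, edgeR). The chaperone genes *CALR* (−1.26, adjusted *p* = 0.00109), *PDIA3* (−0.91, adjusted *p* = 0.00319), *HSPA5* (−0.71, adjusted *p* = 0.0166), and *UGGT1* (−0.53, adjusted *p* = 0.0422) fell. They serve the folding of many glycoproteins besides class I.

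All 4 genes listed for the standard proteasome fell, where 19.1% of all genes were lower. They were *PSMB5*, *PSMB6*, *PSMB7*, and the proteasome activator gene *PSME3*, with log2 fold changes from −0.77 for *PSMB6* to −0.51 for *PSMB5*. The interferon-inducible counterparts of these genes gave no call in 5 genes in edgeR without the block, with 2 lower at an unadjusted *p* under 0.05. DESeq2 also made no call, with or without the block, and without it 1 gene was higher at an unadjusted *p* under 0.05. In edgeR with the block 2 were lower, *PSME1* and *PSME2* (the second named after its values were seen). *PSMB8*, which lies 529 bases from *TAP1*, had 8 counts before and 26 after treatment of BT-16, and 0 before and 32 after treatment of CHLA-266. In the same order, *PSMB9*, the opposite neighbor of *TAP1*, had 14, 57, 4, and 25 counts, and *PSMB10* had 87, 116, 53, and 33. All 3 of these subunits had fewer counts than *TAP1* in every library. The limit of the silent families in treated cells was 31.7 counts per kilobase (BT-16) and 21.9 (CHLA-266). *PSMB8* (7.47 and 9.2) and *PSMB9* (17.1 and 7.49) were below it in both lines, and *PSMB10* (20.3) in CHLA-266 only. The part of that signal in their counts was not tested.

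Of 11 factors of the class I promoter, 4 fell, where 19.1% of all genes were lower, and 7 did not pass. With the block 5 were lower and 1 higher, *RELA* (0.43, adjusted *p* = 0.0248, edgeR), and DESeq2 without the block called 3 lower and 1 higher. The lower ones were *RFXAP* (−1.25, adjusted *p* = 0.0156), *NFYC* (−0.73, adjusted *p* = 0.00975), *CREB1* (−0.59, adjusted *p* = 0.0214), and *ATF1* (−0.60, adjusted *p* = 0.0432), all parts or partners of the complex on which NLRC5 acts. *CIITA*, the class II transactivator, went from 119 to 192 counts (BT-16) and from 130 to 228 (CHLA-266), which did not pass (log2 fold change 1.01, adjusted *p* = 0.110). After treatment it had 8.51 (BT-16) and 10.1 (CHLA-266) counts per kilobase, below the limits of the silent families of 31.7 and 21.9.

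Interferon receptors and their signalling gave 2 genes higher and 2 lower of 13, where 16.1% and 19.1% of all genes were. *JAK2* (1.13, adjusted *p* = 0.00178) and *STAT2* (0.89, adjusted *p* = 0.00729) rose, and *IFNGR2* (−0.94, adjusted *p* = 0.00824) and *TYK2* (−0.82, adjusted *p* = 0.0129) fell. *IRF1*, which binds the response element of class I promoters, had 284 counts untreated and 378 treated (BT-16), and 208 and 377 (CHLA-266) (0.88, adjusted *p* = 0.0757, and 0.0412 with the block). Of 9 interferon ligands 6 were detected, 5 of them at no more than 3 counts in each untreated library, and *IFNL3* was the only one called, with 56 counts (BT-16) and 8 (CHLA-266) after treatment against 0 in both untreated libraries. Its treated level in BT-16, 56.6 counts per kilobase, was above the limit of the silent families (31.7). In CHLA-266, at 8.08, it was below that limit (21.9), and the part of that signal in its call was not tested.

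Of 35 interferon-stimulated genes, 9 were higher and 3 lower (16.1% and 19.1% of all genes), with a median log2 fold change of 1.15. Of the 9, *IFI44L*, *MX1*, *MX2*, *SP100*, and *XAF1* were below the 95th percentile of the silent families in all 4 libraries (*MX1* at 9.56 counts per kilobase against 31.7 in treated BT-16 cells), and the part of that signal in their calls and in the median was not tested. The other 4 were above it in every library. *IFIT1* (829 to 1330 counts for BT-16 and 830 to 1800 for CHLA-266), *IFIT2*, *ISG20*, and *IFI35* were these 4 and rose, with log2 fold changes of 1.18, 2.38, 1.15, and 0.91. *IFITM3* (−1.38), *OAS3* (−1.49), and *USP18* (−0.97) fell, all with the same sign in both lines, although *USP18* did not pass with upper-quartile normalization (adjusted *p* = 0.0930, edgeR). The most abundant of the list per kilobase, *BST2*, had 21044 counts untreated and 14911 treated (BT-16), and 14525 and 14086 (CHLA-266) (−0.03, adjusted *p* = 0.896). The list thus held calls in both directions, and 19 of its 25 genes with a RefSeq window (76.0%) carried the response element core, including *IFITM3* and *OAS3*.

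Relatives of the class I chains were also measured. Of 10 class I-like heavy chains, *HFE*, which controls iron uptake, and *CD1D*, which presents lipids, were called higher. Among all genes, 16.1% were higher and 19.1% lower. *HFE* went from 320 to 558 counts (BT-16) and from 392 to 604 (CHLA-266), a log2 fold change of 0.95 (adjusted *p* = 0.0439). *CD1D* had 4 counts untreated and 71 treated (BT-16), and 0 and 28 (CHLA-266), and after treatment it was below the limit of the silent families, at 16.3 counts per kilobase against 31.7 and at 6.42 against 21.9. Of 8 ligands of the activating receptor NKG2D, *ULBP2* (1.69, adjusted *p* = 0.0175) and *ULBP3* (0.67, adjusted *p* = 0.0165) rose and *MICB* (−1.30, adjusted *p* = 0.00414) fell.

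**Figure D4:**
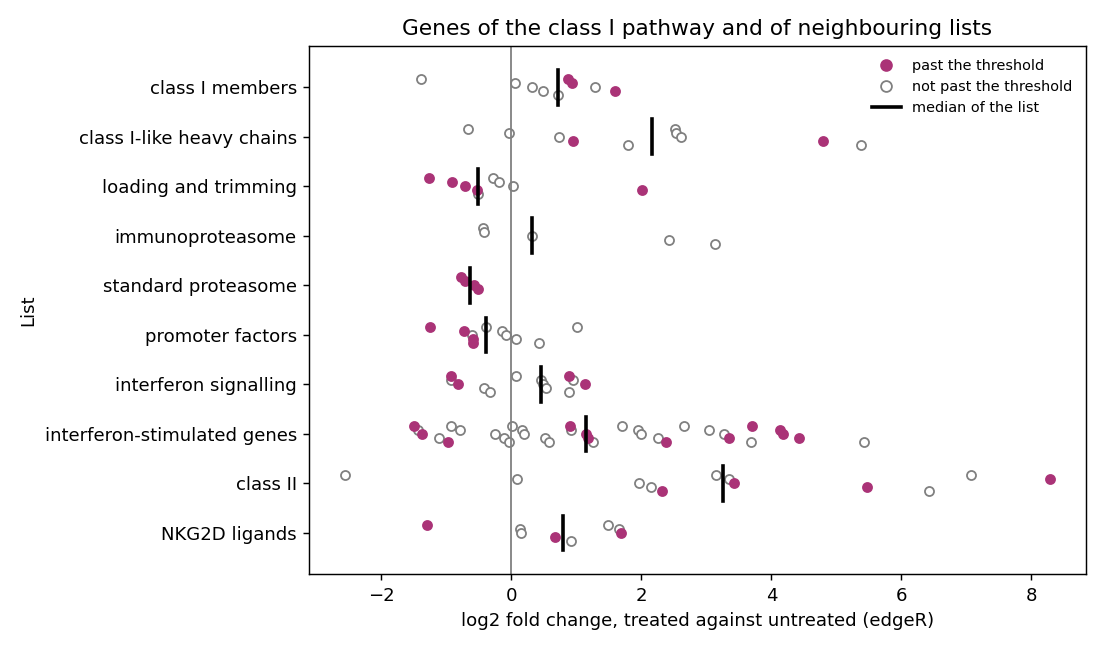
The edgeR log2 fold change of every detected gene in the class I list and in 9 further lists, 1 point per gene, filled where the adjusted *p* value was under 0.05, with the list median as a black bar. All 4 genes listed for the standard proteasome lie to the left of 0, and the interferon-stimulated genes lie on both sides with a median of 1.15.

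Markers of immune cells, which carry much class I, were measured in the same libraries. Of 21 immune markers in the table, 7 were called higher, where 16.1% of all genes were. The summed level of the markers was 10.7 CPM before and 24.3 after treatment of BT-16, and 7.47 before and 12.7 after treatment of CHLA-266. The class I members summed to 303.8, 486.5, 356.4, and 530.9 CPM in the same order. Between 2 and 9 of the markers were at 0 counts in a library. *PTPRC*, the pan-leukocyte gene CD45, had 287 counts untreated and 167 treated (BT-16), and 30 and 64 (CHLA-266). Of 12 class II genes, 4 were higher (*HLA-DRB1*, *HLA-DPA1*, *HLA-DPB1*, and *HLA-DMB*), of which all but *HLA-DMB* were below the limit of the silent families in all libraries, with a summed level that went from 3.77 to 13.4 CPM (BT-16) and from 4.29 to 11.2 (CHLA-266). *CD74*, the invariant chain that class II cells make in large amounts, had 36 counts untreated and 6 treated (BT-16), and 49 and 6 (CHLA-266). Of 14 stromal, endothelial, and glial markers, 4 were higher, and the sum went from 12.1 to 35.9 CPM (BT-16) and from 6.53 to 21.7 (CHLA-266). The part of such cells in the rise of *TAP1*, *HLA-E*, and *TAPBP* was not tested.

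Finally, the genes of most similar pattern were sought by the root mean square difference of centered log2 CPM over the 4 libraries, among 12620 genes. *HLA-E* was most like *ZNF841* (0.015), and *TAP1* was most like *DOCK4*. *HLA-B* was most like *OTULINL*, at the larger distance of 0.182, with 247 counts untreated and 282 treated (BT-16), and 756 and 93 (CHLA-266). *HLA-C* was most like *GDAP1L1* (0.168), with 14 counts untreated and 80 treated (BT-16), and 45 and 12 (CHLA-266). The nearest gene to *HLA-B* was therefore another gene that was high in untreated and low in treated CHLA-266 cells. Since members were not candidates, their likeness to each other was not measured. With 4 libraries, many genes come close to any pattern.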

How the data were processed

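RNA of BT-16 and CHLA-266 cells was sequenced from a stranded kit for low input with paired ends. The authors demultiplexed with bcl2fastq 2.20, trimmed, aligned to hg38 with STAR (version not given in the sources used here), counted reads per gene, and removed genes counted repeatedly and genes of the sex chromosomes. The expected counts that the authors deposited cover 18449 symbols as raw values, of which 5, belonging to 2 genes, had decimals and were rounded to whole numbers. The deposited log2 values are variance-stabilized by DESeq2 for 17553 genes and served 1 alternative. Reads were aligned to 1 reference allele per HLA gene. Whether strand or both reads of a pair entered the counts is not stated.

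Samples were grouped by the labels. After removal of 383 symbols with a total of 0, the treated group was tested against the untreated group by the quasi-likelihood method of edgeR 4.0.16 (TMM, Benjamini-Hochberg adjustment over 18066 genes, adjusted *p* under 0.05) in R 4.3.3, without a cell line term. TMM factors ranged from 0.919 to 1.12. The cell line itself pairs the libraries, and deviations from the condition means correlated with r = 0.257 over 12620 genes, which are not independent replicates. Within lines, log2 ratios used 0.5 added counts and Clopper-Pearson 95% intervals, which cover counting error only. Positions and lengths came from GENCODE 44, promoters from RefSeq (GRCh38.p14). Alternatives were the block, DESeq2 1.42.0, 3 other scalings, low-count filters, limma 3.58.1 on the log2 values, a log2 threshold of 1, and each library left out. Members, gene lists, motifs, and the rule for named genes were chosen with earlier results of these data known. Named were all members, fixed genes (some not reported here), pathway genes past the threshold, the most abundant gene of a list, and the genes of most similar pattern. In simulated counts with 200 changed genes, edgeR recovered 186 where the lines had the same mean (18039 genes tested) and 0 where each line had its own mean (18046 genes tested), against 164 with the block. The simulated line means pooled treated and untreated libraries, and 1 dispersion was set for all genes. In the data the same fit without the block called 2910 genes higher and 3454 lower, so the recovery of 0 does not describe it there.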

Additional observations from a re-analysis of the deposited data

Results flagged for a closer look

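For 3 class I genes, the treated library was on opposite sides of the untreated one in the cell lines. The log2 ratio of treated to untreated *HLA-B* was 0.19 for BT-16 and −3.06 for CHLA-266. For *HLA-C* the ratios were 2.27 (BT-16) and −1.61 (CHLA-266). *TAP2* had −0.31 (BT-16) and 0.35 (CHLA-266). Scaled to library totals in place of TMM, the *TAP2* ratio for BT-16 was −0.016. With counts halved for read pairs, the interval of *HLA-B* in BT-16 spanned −0.08 to 0.46. The difference between the lines was not tested for any of the 3 genes, since each line gave 1 library per condition. *HLA-C* in treated CHLA-266 cells and *TAP2* in treated BT-16 cells lay below the 95th percentile of the silent gene families of their library, and the part of that signal was not tested.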

How the results depend on the processing

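*TAP1* and *HLA-E* passed the threshold under all 10 alternative fits and with each library left out, and *TAPBP* passed under all 10 fits and in 3 of 4 omissions. The fits with the cell line as a replicate block gave 1 lower member, *HLA-B*, in edgeR and DESeq2, and 11 higher pathway genes in edgeR, and changed no other call of a member in edgeR. *B2M* passed in the DESeq2 fit with the block (adjusted *p* = 0.0415) and under upper-quartile normalization (adjusted *p* = 0.0331). Of the pathway genes, 11 were higher in DESeq2 and under upper-quartile normalization, and 10 with library totals and in limma. Lower pathway genes numbered 2 under upper-quartile normalization, 9 with library totals, and 9 among genes that reached 10 counts in each library, where fewer genes were tested. Upper-quartile normalization left 1895 lower genes of all, and a threshold of 1 on the log2 fold change left 1721 lower genes, 1 higher member, and 2 lower pathway genes. With 1 library left out, the lone library being assumed to vary like the others, between 0 and 1 members were lower, 3 to 6 pathway genes higher, and 7 to 14 lower. The sign of *HLA-C* turned without untreated (−0.12) or treated BT-16 cells (−1.02), and that of *TAP2* without treated CHLA-266 cells (−0.29), and over all omissions they reached 1.57 and 0.35. Between the lines, *HLA-B* was 0.62 without the condition in the model, and *TAP1* was −0.024 with library totals. Where not stated, the cause was not tested. With 2 libraries per condition, genes that did not pass are not shown to be unchanged.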
